A study of Homo sapiens with 30 samples.

Results

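BET proteins and the regulators of the elongation kinase P-TEFb were examined here as a group of 9 genes: BRD2 and BRD3, HEXIM1 and HEXIM2, CDK9, CCNT1 and CCNT2, and LARP7 and MEPCE. They were taken from the deposited count table of 33538 genes by matching Ensembl gene identifiers to these symbols; the matching rule reads no measured value, but the genes were picked with earlier results of these data known. All 9 were found, and all 9 passed the filter on low counts that 16713 genes passed. HEXIM2 did so with only 3 to 49 reads in a library.

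The libraries were poly(A)-selected RNA of 3 Ewing sarcoma cell lines, CHLA10, A673 and TC32, all labelled with the genotype EWS::FLI1, the fusion gene that drives this tumour of bone and soft tissue. Cells of each line were kept for 72 h, labelled 3 days, in 5 nM BMS-986158, a small-molecule BET bromodomain inhibitor. Each line also has a 3-day group in the solvent DMSO, for which no hours are given. CHLA10 and A673 were also kept in 5 nM BMS-986158 for 20 days without a break (called persister cells in the labels), and each has a 20-day DMSO group. The labels do not say how long those 20-day DMSO cells had been in DMSO. Each of the 10 groups held 3 libraries. Nothing in the labels says that the 3 libraries of a group came from separate cultures. In the main tests the spread behind each p-value was estimated within groups over all 30 libraries together, not from the compared groups alone. That spread could be technical. The medium of CHLA10 differed from that of A673 and TC32, so that line and medium cannot be told apart. In bulk RNA, fewer cells that express a gene and less RNA per cell cannot be told apart either.

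P-TEFb is the kinase CDK9 bound to cyclin T1 or cyclin T2, the products of CCNT1 and CCNT2. It phosphorylates RNA polymerase II and the factors that hold it paused near the start of genes, and so lets elongation begin. A large pool of P-TEFb is kept inactive on the small nuclear RNA 7SK, where HEXIM1 or HEXIM2 inhibits the kinase, LARP7 binds the 3′ end of the RNA and MEPCE caps its 5′ end. BET proteins bind acetylated histones through paired bromodomains, and inhibitors such as BMS-986158 occupy those bromodomains. A rise of HEXIM1 RNA is widely used as a marker that a BET inhibitor has reached its target.

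Depth, in M counts per library (1 M being 1000000), ran from 16.1 to 48.9, and in CHLA10 it was higher in BMS-986158 than in DMSO libraries at 3 days (22.2 to 24.9 against 16.5 to 19.7 M) and at 20 days (25.1 to 26.3 against 17.4 to 20.5 M). Mitochondrially encoded transcripts took 0.995 to 5.53% of counts. Of the markers checked, 7 Ewing sarcoma genes together gave 1700 to 5300 counts per 1000000 counts of the library (CPM). Of that sum CCND1 alone gave 1300 to 3790 CPM. Leukocyte markers gave 0 to 2.06, epithelial markers 0 to 1.59 and endothelial markers 0 to 5.16 CPM. NKX2-2, one of the Ewing sarcoma markers, was nearly absent from CHLA10, at 0.0397 to 0.65 CPM with BMS-986158 and 1.06 to 1.28 CPM with DMSO at 3 days. The 4 libraries farthest from the rest of their groups were replicate 3 of A673 20-day BMS-986158, A673 3-day DMSO, CHLA10 20-day BMS-986158 and CHLA10 20-day DMSO. The SD of their log2 differences from the rest of the group was 0.738, 0.684, 0.642 and 0.573, in that order. No gap lies below the last, as A673 20-day BMS-986158 replicate 2 and TC32 DMSO replicate 1 were at 0.569. Without these 4 libraries the 5 comparisons of BMS-986158 with DMSO called 3, 6, 5, 4 and 5 of the 9 genes, in the order CHLA10, A673 and TC32 at 3 days, then CHLA10 and A673 at 20 days, against 3, 5, 5, 4 and 5 with all libraries. Calls over all genes rose as well, to 6927, 7736, 9184, 6224 and 8154 of 17083 genes tested, in that order. With all libraries they were 4975, 5637, 7545, 5627 and 6627 of 16713.

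HEXIM1 and BRD2 were the only members called higher with BMS-986158 in all 5 comparisons, as were 469 of all 16713 genes tested (2.81%). The 250 bases before the RefSeq transcription starts of HEXIM1 and BRD2 are shown first (RefSeq, GRCh38.p14). Those of HEXIM2, the neighbouring paralogue of HEXIM1, whose RNA was scarce, follow. RefSeq gives 4 starts for BRD2 and 2 for HEXIM2, and for each gene the start nearest its 5′ end in GENCODE 29 was used. Capitals mark matches to 5 short motifs searched on both strands. The TATA box was searched as TATAAA and the CCAAT box by those letters. The GC box was searched as GGGCGG. For the E-box the letters were CACGTG. An ETS-type core was searched as CCGGAAG. A match on the other strand appears as its reverse complement, such as ATTGG for CCAAT and CCGCCC for GGGCGG.
HEXIM1, chr17:45148225-45148474, plus strand: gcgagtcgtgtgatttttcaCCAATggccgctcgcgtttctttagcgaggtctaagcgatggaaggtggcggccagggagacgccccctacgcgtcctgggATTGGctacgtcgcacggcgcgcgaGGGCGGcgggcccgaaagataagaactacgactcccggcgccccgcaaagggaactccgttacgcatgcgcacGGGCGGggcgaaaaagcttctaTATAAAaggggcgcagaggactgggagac
BRD2, chr6:32968344-32968593, plus strand: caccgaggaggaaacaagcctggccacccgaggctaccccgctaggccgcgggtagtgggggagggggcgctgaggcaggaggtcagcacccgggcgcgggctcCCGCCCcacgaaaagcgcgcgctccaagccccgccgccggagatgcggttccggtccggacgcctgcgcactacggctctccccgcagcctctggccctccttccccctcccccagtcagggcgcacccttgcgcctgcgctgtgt
HEXIM2, chr17:45159924-45160173, plus strand: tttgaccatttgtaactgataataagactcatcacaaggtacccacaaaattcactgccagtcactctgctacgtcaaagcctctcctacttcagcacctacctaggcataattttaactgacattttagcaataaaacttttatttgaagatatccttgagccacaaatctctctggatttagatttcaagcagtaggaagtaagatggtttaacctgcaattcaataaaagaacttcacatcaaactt
HEXIM1 was the only one of the 9 members with TATAAA in this window, at bases -29 to -24 from its start, and 10.7% of 35116 RefSeq promoter windows of the same length hold it. It also had CCAAT at -230 on the gene's strand and at -149 on the other, and GGGCGG at -124 and -51. BRD2 had 1 match, GGGCGG on the other strand at -146, and its window was 74.0% G and C, against 62.4% for HEXIM1 and a median of 58.0% over all windows. The HEXIM2 window was 36.0% G and C and held none of the 5 motifs. It ended at base 45160173, well before the start of the GENCODE 29 gene at 45160700. It is thus not the window directly before that start. The HEXIM1 window ended at 45148474, close to its GENCODE start at 45148502. GGGCGG was in 8 of the 9 members' windows (42.6% of all windows) and CCAAT in 5 of the 9 (32.0% of all windows). CCGGAAG was in the windows of CDK9 and CCNT1 (8.52% of all) and CACGTG in that of CCNT1 (6.34%). In GENCODE 29 the windows of CDK9, CCNT1 and CCNT2 lay wholly within exons of those genes, as did 179 of the 250 bases for LARP7. The BRD3 window, 134068027 to 134068276, lay within its minus-strand gene, which ends at 134068535, but outside its exons. The motif matches are of letters only.

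Of the 45 comparisons that 9 genes in 5 pairs of groups give, 22 were called higher with BMS-986158 and 0 lower (edgeR's quasi-likelihood test, Benjamini-Hochberg adjusted p below 0.05 over all 16713 genes). DESeq2 also called 22, 0 of them lower, and at an unadjusted p below 0.05 edgeR found 1 lower, HEXIM2 in A673 at 20 days. In CHLA10 at 3 days 3 members were called, where 29.8% of all genes were called, 14.0% higher and 15.7% lower. In A673 at 3 days 5 members were called (33.7% of all genes, 15.3% higher and 18.4% lower), and in TC32 also 5 (45.1% of all genes, 22.3% higher and 22.8% lower). At 20 days 4 members were called in CHLA10 (33.7% of all genes, 16.5% higher and 17.2% lower) and 5 in A673 (39.7% of all genes, 19.7% higher and 19.9% lower). In A673 at 20 days, scaling by library size only gave 2510 genes higher and 4251 lower, against 3298 and 3329 with TMM factors. The members' median log2 change at 3 days was 0.12 in CHLA10, 0.39 in A673 and 0.54 in TC32, and at 20 days 0.08 in CHLA10 and 0.26 in A673, while the median over all genes tested lay between -0.02 and 0.00. TMM scaling itself holds that all-gene median near 0. With library size only it was -0.115 in A673 at 20 days.

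**Figure D1:**
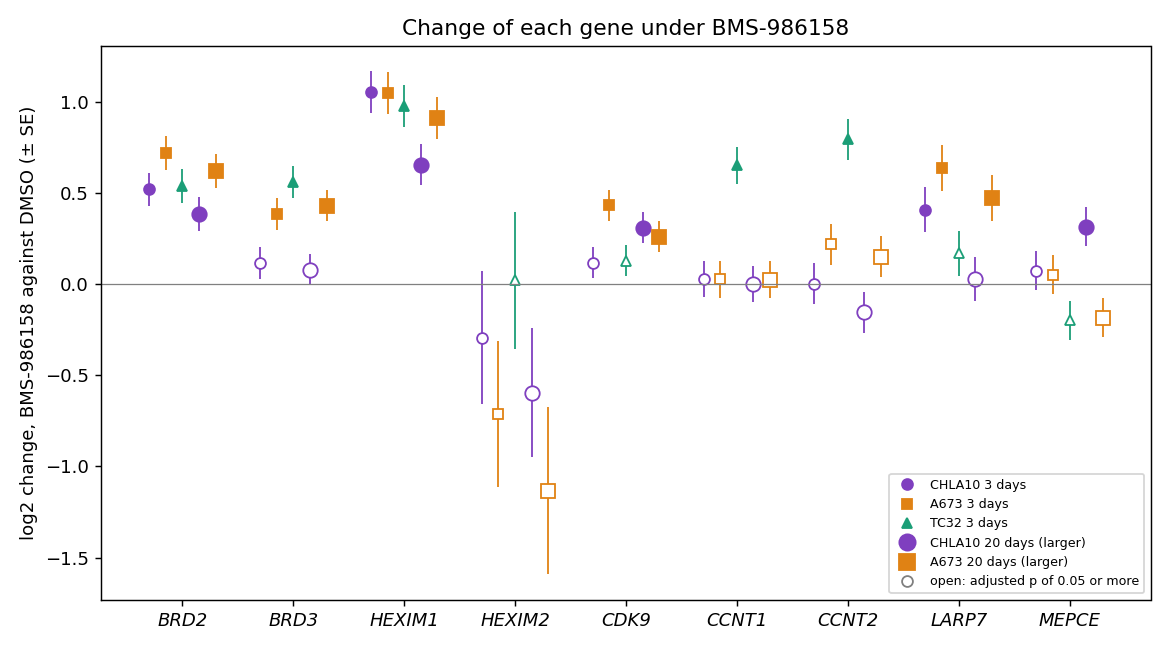
Log2 change of each gene in BMS-986158 against DMSO, for the 3 lines at 3 days (small symbols) and CHLA10 and A673 at 20 days (large symbols). Bars are standard errors worked back from the edgeR test. Filled symbols had an adjusted p below 0.05. HEXIM1 and BRD2 were filled in all 5 comparisons, CCNT1 and CCNT2 in TC32 alone, and HEXIM2 in none.

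BRD2 (ENSG00000204256, chromosome 6, 32968660 to 32981505, plus strand, GRCh38) encodes a BET protein that is itself bound by the drug. Values are CPM over TMM-scaled library sizes, a level, in replicates 1, 2 and 3. In CHLA10 at 3 days BRD2 stood at 413, 416 and 478 CPM with BMS-986158, against 306, 297 and 308 CPM with DMSO. A673 cells at 3 days had 385, 398 and 416 CPM with BMS-986158, against 257, 255 and 215 CPM with DMSO. In TC32 it stood at 358, 366 and 376 CPM with BMS-986158, against 242, 268 and 246 CPM with DMSO. Each BMS-986158 library was above each DMSO library of its line. The log2 changes were 0.52 ± 0.09 in CHLA10 (SE, adjusted p = 8.95e-05), 0.72 ± 0.09 in A673 (adjusted p = 1.11e-06) and 0.54 ± 0.09 in TC32 (adjusted p = 3e-05), with n = 3 per group in edgeR.

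At 20 days BRD2 stood at 400.2, 424 and 406 CPM with BMS-986158 and at 314, 325 and 302 CPM with DMSO in CHLA10. After 20 days A673 cells had 394, 392 and 330.3 CPM with BMS-986158 and 279, 219 and 227 CPM with DMSO. The groups did not overlap at this time either, and the lowest A673 BMS-986158 library was replicate 3, one of the 4 that stood apart. The log2 changes were 0.39 ± 0.09 in CHLA10 (adjusted p = 0.00181) and 0.62 ± 0.09 in A673 (edgeR, adjusted p = 4.91e-06). Without the 4 distant libraries they were 0.38 ± 0.09 and 0.69 ± 0.08. HLA-DMA overlaps BRD2 on the opposite strand, and its means were 0.522 to 0.893 CPM in BMS-986158 groups and 0.527 to 1.66 CPM in DMSO groups. It was called in TC32, where it fell (-1.38 ± 0.56, edgeR adjusted p = 0.0441).

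BRD3 (ENSG00000169925, chromosome 9, 134030305 to 134068535, minus strand) encodes another BET protein and was called higher in TC32 and A673. In TC32 it stood at 69.6, 86.6 and 83.8 CPM with BMS-986158, against 53.5, 57.1 and 51.7 CPM with DMSO, a log2 change of 0.56 ± 0.09 (edgeR, adjusted p = 7.57e-06). In A673 it rose at 3 days (116, 113 and 120.5 CPM with BMS-986158, against 81.7, 82.4 and 103 CPM with DMSO, log2 change 0.39 ± 0.09, edgeR adjusted p = 0.000946). It also rose in A673 at 20 days, with 138, 139.9 and 149 CPM in BMS-986158 libraries and 105, 107 and 105 CPM in DMSO libraries (0.43 ± 0.09, edgeR adjusted p = 0.000186). The 103 CPM of A673 3-day DMSO replicate 3 was the highest of its group, and without the 4 distant libraries the 3-day change was 0.54 ± 0.08.

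In CHLA10 BRD3 was not called at either time. Its means were 103 ± 4.28 CPM with BMS-986158 and 95.1 ± 3.29 CPM with DMSO at 3 days (SD, n = 3 each, log2 change 0.12 ± 0.09). At 20 days they were 104 ± 2.46 and 97.9 ± 3.72 CPM in the same order (0.08 ± 0.09). BRD3OS, a gene on the opposite strand that overlaps BRD3, was called higher in 4 of the 5 comparisons, by 0.47 in CHLA10, 0.34 in A673 and 0.41 in TC32 on the log2 scale at 3 days and by 0.53 in A673 at 20 days. It was at 0.24 in CHLA10 at 20 days (edgeR, adjusted p = 0.0614). BRD3OS means lay between 32.4 and 62.0 CPM with BMS-986158 and between 25.5 and 48.8 CPM with DMSO. Whether the counting used strand is not given in the sources used here, so where the genes overlap reads of BRD3 and BRD3OS cannot be told apart if it did not.

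**Figure D2:**
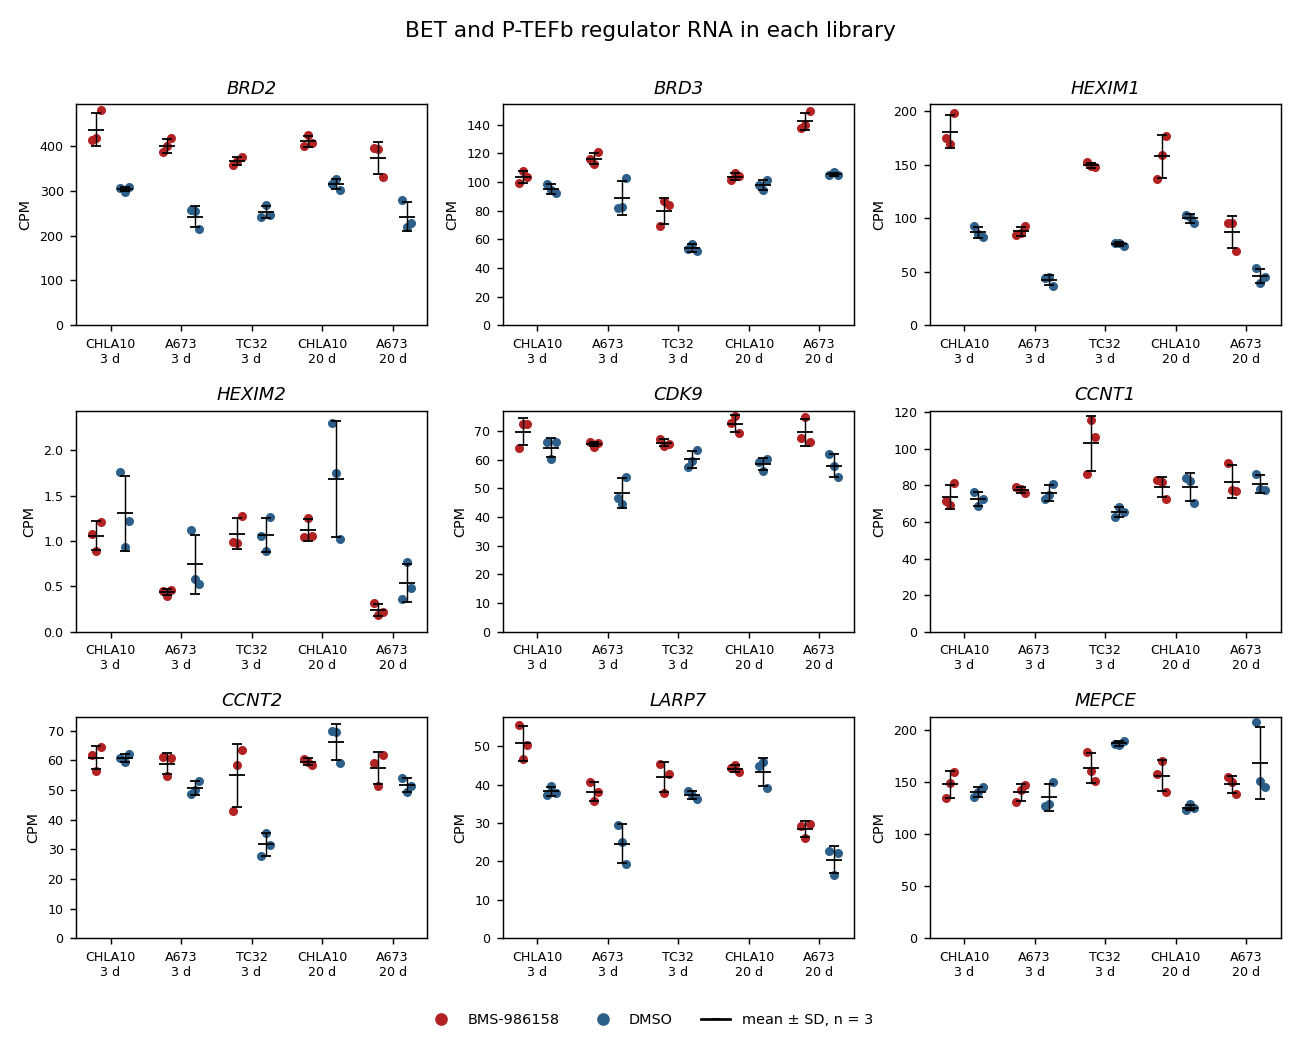
CPM of the 9 genes in each of the 30 libraries (points), with the mean and SD of each group of 3 (black), BMS-986158 left of DMSO for each line and time. HEXIM1 and BRD2 points of BMS-986158 lay above those of DMSO in each of the 5 pairs, while CCNT1 points separated only in TC32, where BMS-986158 libraries held 86.2 to 116 CPM and DMSO libraries 62.6 to 68.2 CPM.

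Among the 7SK-bound inhibitors, HEXIM1 had the largest rise of the 9 genes in each comparison. HEXIM1 (ENSG00000186834, chromosome 17, 45148502 to 45152101, plus strand) is the main HEXIM inhibitor of P-TEFb. In CHLA10 at 3 days it stood at 175, 169 and 198.5 CPM with BMS-986158, against 93.0, 85.5 and 82.9 CPM with DMSO. A673 cells at 3 days had 84.2, 86.8 and 92.6 CPM with BMS-986158, against 44.7, 45.5 and 37.1 CPM with DMSO. In TC32 it stood at 152, 149 and 148 CPM with BMS-986158, against 76.7, 77.5 and 73.8 CPM with DMSO. The groups were far apart in each line, and the fold changes were 2.08 in CHLA10, 2.07 in A673 and 1.97 in TC32. On the log2 scale these were 1.06 ± 0.12 (adjusted p = 7.91e-08), 1.05 ± 0.12 (adjusted p = 1.31e-07) and 0.98 ± 0.12 (adjusted p = 1.56e-07) in edgeR.

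HEXIM1 levels also differed between lines. A673 cells with BMS-986158 averaged 87.9 ± 4.30 CPM at 3 days, close to the 87.1 ± 5.25 CPM of CHLA10 cells with DMSO (SD, n = 3 each), and those 2 groups overlapped. Under DMSO at 3 days HEXIM1 was lower in A673 than in CHLA10 by a log2 difference of -1.04 ± 0.12 (edgeR, adjusted p = 1.29e-08), about as large as its change with the drug.

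At 20 days HEXIM1 stood at 137, 159.6 and 177 CPM with BMS-986158 and at 104, 101 and 95.7 CPM with DMSO in CHLA10. In A673 it stood at 95.7, 96.2 and 69.6 CPM with BMS-986158 and at 53.4, 40.0 and 45.3 CPM with DMSO. The groups again did not overlap, and the highest CHLA10 and the lowest A673 libraries with the drug were both replicates 3 that stood apart from their groups. The log2 changes were 0.66 ± 0.11 in CHLA10 (adjusted p = 5.41e-05) and 0.91 ± 0.12 in A673 (edgeR, adjusted p = 4.57e-07). Without the 4 distant libraries they were 0.55 ± 0.10 and 1.04 ± 0.09.

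The opposite-strand gene HEXIM2-AS1, which overlaps HEXIM1 and HEXIM2, had 37 reads over the 30 libraries. ACBD4, which lies 4321 bp from HEXIM1 on the same strand, was called in none of the 5 comparisons (adjusted p of 0.28 to 0.921).

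HEXIM2 (ENSG00000168517, chromosome 17, 45160700 to 45170040, plus strand), a paralogue with the same inhibitory role, was scarce. The 30 libraries held 0.191 to 2.30 CPM, which was 3 to 49 reads, so its values carry large counting error. In A673 at 20 days it stood at 0.318, 0.191 and 0.214 CPM with BMS-986158 and at 0.358, 0.770 and 0.484 CPM with DMSO, from 3 to 6 and from 10 to 21 reads. The log2 change was -1.13 ± 0.46 and did not pass the test (edgeR, adjusted p = 0.052), and over 14 alternative settings the adjusted p ran from 0.0295 to 0.265, passing in 4. In the other comparisons its log2 changes were -0.29 in CHLA10, -0.71 in A673 and 0.02 in TC32 at 3 days and -0.59 in CHLA10 at 20 days, none of them called.

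Within a library, the ratio of HEXIM1 to CDK9 reads does not depend on how libraries are scaled. These ratios are of reads, not corrected for length, and are read only between groups. In CHLA10 at 3 days the ratio was 2.34 to 2.75 with BMS-986158 and 1.25 to 1.42 with DMSO. It was 1.27 to 1.41 with BMS-986158 and 0.686 to 1.03 with DMSO in A673, and 2.27 to 2.29 and 1.16 to 1.33 in the same order in TC32. At 20 days it was 1.88 to 2.56 with BMS-986158 and 1.59 to 1.80 with DMSO in CHLA10, and 1.05 to 1.42 and 0.694 to 0.860 in A673. The ratio was higher with the drug in every library of a line and time than in any DMSO library of the same line and time. HEXIM1 reads were 116 to 504 times HEXIM2 reads in BMS-986158 libraries and 39.9 to 149 times in DMSO libraries.

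The ratio of BRD2 to BRD3 reads separated CHLA10 groups but not TC32 groups. It was 3.87 to 4.64 with BMS-986158 and 3.10 to 3.33 with DMSO in CHLA10 at 3 days, and at 20 days 3.91 or more with BMS-986158 and 2.97 to 3.45 with DMSO. It was 3.33 to 3.53 with BMS-986158 and 2.09 to 3.14 with DMSO in A673 at 3 days. In TC32, where both genes rose, it was 4.22 to 5.14 with BMS-986158 and 4.52 to 4.76 with DMSO, and in A673 at 20 days 2.22 to 2.86 and 2.05 to 2.67, so that these groups overlapped.

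**Figure D3:**
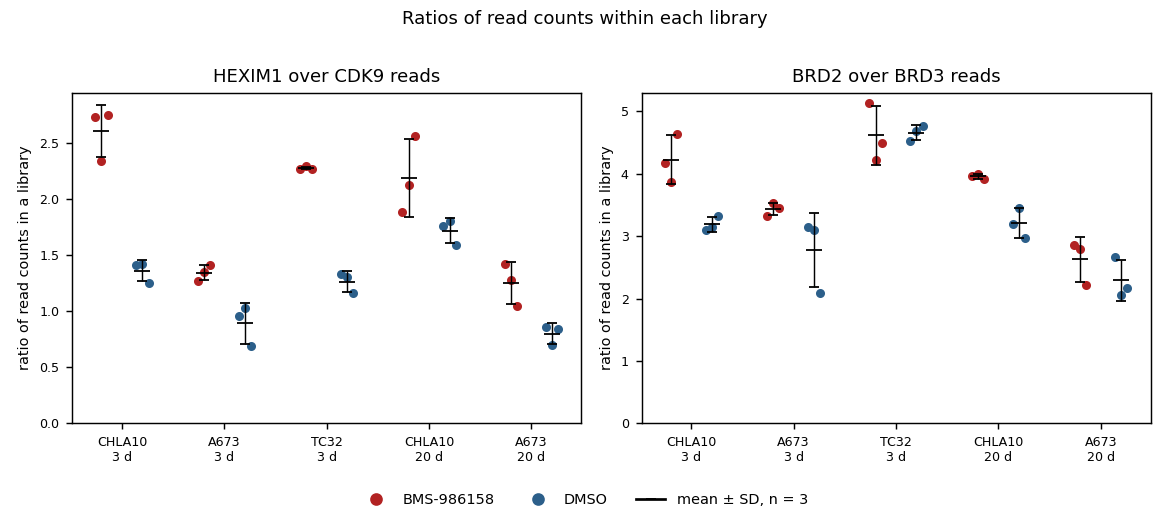
Ratio of HEXIM1 to CDK9 reads (left) and of BRD2 to BRD3 reads (right) in each library, with mean and SD of each group of 3, BMS-986158 left of DMSO. HEXIM1 to CDK9 was higher with BMS-986158 in each pair, for example 2.27 to 2.29 against 1.16 to 1.33 in TC32, while BRD2 to BRD3 overlapped in TC32 and in A673 at 20 days.

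The kinase gene CDK9 (ENSG00000136807, chromosome 9, 127785679 to 127790787, plus strand) changed less. In A673 at 3 days it stood at 66.0, 64.5 and 65.7 CPM with BMS-986158 and at 46.7, 44.4 and 54.1 CPM with DMSO, a log2 change of 0.43 ± 0.08 (edgeR, adjusted p = 0.000219). In CHLA10 at 20 days it stood at 72.9, 75.1 and 69.3 CPM with BMS-986158 and at 59.0, 56.1 and 60.1 CPM with DMSO (0.31 ± 0.08, edgeR adjusted p = 0.00475). After 20 days A673 cells had 67.5, 74.9 and 66.1 CPM with BMS-986158 and 62.1, 57.7 and 53.9 CPM with DMSO (0.26 ± 0.08, edgeR adjusted p = 0.0133). These 3 were called, and the last is the least firm: the call was lost in 5 of 14 alternatives, with adjusted p from 0.00423 to 0.192, among them scaling by library size only and leaving out BMS-986158 replicate 2 (0.0917) or DMSO replicate 3 (0.0834). CDK9 did not pass the test in CHLA10 (0.12 ± 0.08) or TC32 (0.13 ± 0.08) at 3 days, although the lowest TC32 library with BMS-986158, at 64.9 CPM, was above the highest with DMSO, at 63.5 CPM. FPGS, which lies 3810 bp away on the same strand, was called higher in the same 3 comparisons as CDK9, at 0.54 and 0.57 in A673 at 3 and 20 days and 0.55 in CHLA10 at 20 days.

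The cyclin genes were called in TC32 and in no other comparison. CCNT1 (ENSG00000129315, chromosome 12, 48688458 to 48716998, minus strand) encodes cyclin T1, the usual partner of CDK9. In TC32 it stood at 86.2, 116 and 107 CPM with BMS-986158, against 62.6, 68.2 and 65.2 CPM with DMSO, a log2 change of 0.65 ± 0.10 (edgeR, adjusted p = 8.32e-06). The lowest treated library stood well above the highest DMSO library. In the other 4 comparisons its log2 changes were 0.00 to 0.03, with an SE of 0.10 each, and the groups overlapped.

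CCNT2 (ENSG00000082258, chromosome 2, 134918235 to 134959342, plus strand), which encodes cyclin T2, stood at 43.1, 58.4 and 63.6 CPM with BMS-986158 and at 27.9, 35.6 and 31.6 CPM with DMSO in TC32. This was the largest change of a P-TEFb subunit, 0.80 ± 0.11 on the log2 scale (edgeR, adjusted p = 2.45e-06). Replicate 1 was the lowest library in each of these TC32 groups, and of the BMS-986158 libraries for CCNT1 too. Elsewhere CCNT2 had log2 changes of 0.00 in CHLA10 and 0.22 in A673 at 3 days, and of -0.15 in CHLA10 and 0.15 in A673 at 20 days, none of them called (SE of 0.11 each). In A673 at 3 days the change was 0.30 without the 4 distant libraries and passed the test there (edgeR, adjusted p = 0.032), the only one of 14 alternatives in which it did (0.032 to 0.34). The antisense gene CCNT2-AS1 overlaps CCNT2. It had 1.34 CPM with BMS-986158 and 0.270 CPM with DMSO in TC32 (log2 change 2.25 ± 0.68, edgeR adjusted p = 0.00777), and in CHLA10 at 20 days 0.709 and 0.151 CPM in the same order (2.20 ± 0.74, edgeR adjusted p = 0.0217). Its reads cannot be told apart from those of CCNT2 if strand was not used.

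The treatment effects on the cyclins differed between lines. The log2 change of CCNT1 in TC32 exceeded that in CHLA10 by 0.62 ± 0.14 (edgeR, adjusted p = 0.00467) and that in A673 by 0.63 ± 0.14 (adjusted p = 0.00227). For CCNT2 the differences were 0.79 ± 0.16 against CHLA10 (edgeR, adjusted p = 0.00163) and 0.58 ± 0.16 against A673 (adjusted p = 0.00884). The change of BRD3 was larger in TC32 than in CHLA10 by 0.45 ± 0.12 (edgeR, adjusted p = 0.0154), but not called without TC32 BMS-986158 replicate 2 (0.386, adjusted p = 0.0634) or replicate 3 (0.414, adjusted p = 0.0518). Of the 9 members, 3 were called between TC32 and CHLA10, where 13.8% of all genes were called, and 2 between TC32 and A673 (24.2% of all genes). These differences share the TC32 libraries. Between TC32 and A673, LARP7 (-0.47 ± 0.18, edgeR adjusted p = 0.0525) and CDK9 (-0.30 ± 0.12, adjusted p = 0.0614) did not pass the test. LARP7 passed in 5 of 18 alternatives (0.0123 to 0.159), among them DESeq2 (-0.451, adjusted p = 0.0493), the replicate block (-0.49, 0.0264) and the fit without A673 DMSO replicate 1 (-0.613, 0.0123). CDK9 passed in 1 of 18 (0.0139 to 0.284), without A673 DMSO replicate 3 (-0.392, 0.0139).

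With DMSO alone, TC32 had the lowest CCNT2 and BRD3 of the 3 lines. Under DMSO at 3 days CCNT2 averaged 31.7 ± 3.89 CPM in TC32, 50.6 ± 2.39 CPM in A673 and 60.8 ± 1.36 CPM in CHLA10 (SD, n = 3 each). The log2 differences were -0.94 ± 0.11 for TC32 over CHLA10 (edgeR, adjusted p = 4.61e-08) and -0.68 ± 0.11 for TC32 over A673 (adjusted p = 7.54e-06). BRD3 averaged 54.1 ± 2.72 CPM in TC32, 88.9 ± 11.9 CPM in A673 and 95.1 ± 3.29 CPM in CHLA10, with differences of -0.81 ± 0.09 against CHLA10 and -0.72 ± 0.09 against A673 (edgeR, adjusted p = 5.53e-09 and 4.11e-08). With BMS-986158 CCNT2 averaged 55.0 ± 10.7 CPM in TC32, 58.9 ± 3.58 CPM in A673 and 61.0 CPM in CHLA10 (56.6 to 64.4), and the ranges overlapped. BRD3 with BMS-986158 averaged 80.0 ± 9.10 CPM in TC32, 116 ± 3.98 CPM in A673 and 103 ± 4.28 CPM in CHLA10.

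Other members also differed between lines in DMSO. Between DMSO groups at 3 days, 5 members were called lower in A673 than in CHLA10 and 0 higher (61.2% of all genes called, 31.5% higher and 29.7% lower), with 0 higher also at an unadjusted p below 0.05 and in DESeq2. In TC32, 1 was higher and 3 lower than in CHLA10 (61.1% of all genes, 31.0% higher and 30.1% lower), and 4 were higher and 2 lower than in A673 (66.6% of all genes, 32.3% higher and 34.3% lower). These splits move with the scaling. With library size only, which moved the median of all genes by -0.113, 4471 genes were higher and 5813 lower in TC32 than in CHLA10, against 5182 and 5023 with TMM factors. CDK9 (-0.22), CCNT1 (-0.27) and HEXIM1 (-0.32) were then called lower as well, so that 7 members were called. A673 had less HEXIM1, LARP7, CDK9, BRD2 and CCNT2 RNA than CHLA10, with log2 differences of -1.04, -0.64, -0.41, -0.32 and -0.27. The CCNT2 difference between A673 and CHLA10 was the smallest of these and was lost in most alternatives. MEPCE was higher in TC32 than in CHLA10 (0.41 ± 0.11, edgeR adjusted p = 0.00156) and A673 (0.47 ± 0.11, adjusted p = 0.000401).

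Of the 7SK RNA-binding subunits, LARP7 (ENSG00000174720, chromosome 4, 112636964 to 112657592, plus strand) rose in 3 comparisons. In CHLA10 at 3 days it stood at 55.6, 46.6 and 50.2 CPM with BMS-986158 and at 37.3, 39.6 and 37.8 CPM with DMSO (log2 change 0.41 ± 0.12, edgeR adjusted p = 0.0124). The call was lost without BMS-986158 replicate 1, the highest library (0.343, adjusted p = 0.0754), 1 of 14 alternatives (0.00158 to 0.0754). A673 cells at 3 days had 40.7, 35.7 and 38.1 CPM with BMS-986158 and 29.4, 25.0 and 19.3 CPM with DMSO (0.64 ± 0.12, edgeR adjusted p = 0.000258). After 20 days A673 cells had 29.3, 26.1 and 29.9 CPM with BMS-986158 and 22.8, 16.5 and 22.1 CPM with DMSO (0.48 ± 0.13, edgeR adjusted p = 0.00346). The treated libraries were above the DMSO libraries in all 3 of these comparisons. LARP7 was at 0.17 ± 0.12 in TC32 and 0.03 ± 0.12 in CHLA10 at 20 days, neither called, and ZGRF1, which overlaps it on the opposite strand, was called in none of the 5 (log2 changes of -0.20 to -0.09).

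MEPCE (ENSG00000146834, chromosome 7, 100428790 to 100434126, plus strand), the capping enzyme of 7SK, was called once. In CHLA10 at 20 days it stood at 158, 171 and 141 CPM with BMS-986158 and at 123, 129 and 125 CPM with DMSO (log2 change 0.32 ± 0.11, edgeR adjusted p = 0.023). That call was lost without BMS-986158 replicate 1 (adjusted p = 0.052), BMS-986158 replicate 2 (0.12) or DMSO replicate 1 (0.0715), so that 11 of 14 alternatives kept it (0.00643 to 0.12). In A673 at 20 days the gene stood at 155, 150.2 and 139 CPM with BMS-986158 and at 208, 151 and 146 CPM with DMSO, where 1 DMSO library was far above the others. The difference between the A673 and the CHLA10 effects at 20 days was -0.50 ± 0.15 (edgeR, adjusted p = 0.0177). Without that A673 DMSO library, replicate 1, it was -0.32 (adjusted p = 0.0936), and without CHLA10 BMS-986158 replicate 2 -0.43 (adjusted p = 0.0575). In TC32 MEPCE stood at 179, 161 and 151 CPM with BMS-986158, all below the 186 to 189.8 CPM with DMSO, and was not called (-0.20 ± 0.11, edgeR adjusted p = 0.139). With TC32 alone in the fit it was called lower (-0.21, edgeR adjusted p = 0.0493), in 1 of 14 alternatives (0.0493 to 0.397). It was called lower in A673 at 20 days only with library size scaling (-0.30, edgeR adjusted p = 0.0203, over 14 alternatives 0.0203 to 1.0).

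Between the 20-day effects of A673 and CHLA10, 2 members were called, MEPCE and BRD3, where 21.9% of all genes were called. The BRD3 effect was larger in A673 by 0.35 ± 0.12 (edgeR, adjusted p = 0.0365), a call that was lost in RLE scaling (0.0511), in scaling by library size only (0.166), with no filter (0.204) and in most fits that left out 1 library (0.0526 to 0.0817 where lost). LARP7 was at 0.45 ± 0.18 and not called (edgeR, adjusted p = 0.0705), but it was called with a replicate block (0.451, adjusted p = 0.0434) and in 3 of 18 alternatives in all (0.043 to 0.225). Between A673 and CHLA10 at 3 days 0 members were called by edgeR and 0 by DESeq2, and 2 had an unadjusted p below 0.05 (10.5% of all genes called). Those 2 were CDK9 (0.32 ± 0.12) and BRD3 (0.27 ± 0.12), and both were called without A673 DMSO replicate 3 (0.406 and 0.387, edgeR adjusted p = 0.0163 and 0.0184).

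The effect at 20 days was set against that at 3 days in each line. In CHLA10 0 members were called by edgeR and 0 by DESeq2, and 2 had an unadjusted p below 0.05 (6.32% of all genes called). Those were HEXIM1, at -0.40 ± 0.16 (unadjusted p = 0.0201, edgeR adjusted p = 0.137), and LARP7, at -0.38 ± 0.17 (unadjusted p = 0.0375, edgeR adjusted p = 0.194). In A673 0 members were called by either tool and 0 had an unadjusted p below 0.05 (7.26% of all genes called), and the HEXIM1 difference was -0.14 ± 0.16. The HEXIM1 difference in CHLA10 thus did not pass the adjustment over all genes tested. Over 18 alternatives it was -0.489 to -0.305 and called in 0 (edgeR or DESeq2, adjusted p of 0.0711 to 0.291). This difference was not tested without the 4 distant libraries. The CHLA10 log2 changes of HEXIM1 without them were 1.05 ± 0.08 at 3 days and 0.55 ± 0.10 at 20 days. Between 20-day and 3-day DMSO groups 0 members were called in CHLA10 (15.1% of all genes), 0 at an unadjusted p below 0.05 and 0 by DESeq2. In A673 0 members were called by edgeR (6.1% of all genes), while 4 had an unadjusted p below 0.05 and DESeq2 called 2, BRD3 (0.234, adjusted p = 0.0476) and CDK9 (0.248, adjusted p = 0.0266). The shares of all genes in these 4 comparisons rest on counts that moved with single libraries. Leaving out 1 library gave 289 (without DMSO replicate 2 at 20 days) to 1978 genes (without DMSO replicate 3 at 20 days) for the CHLA10 effects, against 1057 with all. For the A673 effects it gave 685 (without BMS-986158 replicate 1 at 20 days) to 2346 (without BMS-986158 replicate 3 at 20 days), against 1214. Between DMSO groups it gave 12 (without 3-day replicate 1) to 3759 (without 3-day replicate 3) in A673, against 1019, and 1214 (without 20-day replicate 1) to 2922 (without 20-day replicate 3) in CHLA10, against 2526.

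Levels of different genes were compared per kilobase of exon. BRD2 was the highest of the 9 in the 5 BMS-986158 groups, at 49.9 ± 1.23 to 59.4 ± 5.01 CPM per kb, and HEXIM2 was the lowest in all 10 groups, at 0.118 ± 0.0332 to 0.829 ± 0.314 CPM per kb. In DMSO groups BRD2 was highest in CHLA10 and MEPCE in A673 and TC32. HEXIM1 was second to BRD2 in CHLA10 with BMS-986158 at 3 days, at 50.3 ± 4.29 CPM per kb, and came after BRD2 and MEPCE in the other BMS-986158 groups. It came after MEPCE, BRD2, CDK9 and BRD3 in both A673 DMSO groups, at 11.8 ± 1.28 CPM per kb at 3 days and 12.8 ± 1.87 at 20 days, below CDK9 at 16.1 ± 1.70 and 19.3 ± 1.37 CPM per kb. In A673 with BMS-986158 HEXIM1 stood at 24.4 ± 1.20 CPM per kb at 3 days and CDK9 at 21.8 ± 0.267. CCNT2 was below CCNT1 in every group, for example at 6.06 ± 1.18 and 13.9 ± 2.05 CPM per kb in TC32 with BMS-986158.

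To describe which genes moved most like HEXIM1, log2 CPM was centred on the mean of each line and correlated over the 30 libraries. The libraries share treatment groups, and the correlations are given as a description. Among the other members r was 0.97 for BRD2, 0.73 for CDK9, 0.71 for BRD3 and for LARP7, 0.48 for CCNT2, 0.43 for CCNT1, 0.05 for MEPCE and -0.47 for HEXIM2. The 5 other genes with the highest r were TBC1D20 (0.972), ABCF3 (0.966), PNPLA2 (0.963), FAM220A (0.958) and PTPRA (0.956). PNPLA2, which encodes the adipose triglyceride lipase, had 3-day log2 changes of 1.04 in CHLA10, 0.76 in A673 and 1.02 in TC32, and 20-day changes of 0.62 in CHLA10 and 1.15 in A673. TBC1D20, which encodes a GTPase-activating protein for RAB1, had 0.79, 0.73, 0.90, 0.56 and 0.75 in the same order. BRD2 alone of the members reached this range.

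Other genes of the elongation machinery were taken from a list of 31, of which 30 were tested (ELL3 did not pass the filter on low counts). In CHLA10 at 3 days 2 were called higher and 2 lower (29.8% of all genes called), in A673 8 and 1 (33.7%) and in TC32 11 and 5 (45.1%). In CHLA10 at 20 days 7 and 2 were called (33.7% of all genes), and in A673 at 20 days 6 and 3 (39.7%). TC32 thus had the most calls both in the list and among all genes. Without the 4 distant libraries 7 were called in CHLA10 and 14 in A673 at 3 days. Calls over all genes rose there too, to 6927 and 7736 of 17083, against 4975 and 5637 of 16713 with all libraries. Leaving out any 1 library of those CHLA10 groups left 2 or 3 genes of the list called. The list's median log2 changes were 0.04, 0.18, 0.09, 0.11 and 0.07 in that order. Of the 30, 3 were called higher in at least 3 comparisons and 1 lower, where 12.6% of all genes were called higher in at least 3 and 14.0% lower.

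RTF1, which encodes a subunit associated with the PAF1 elongation complex, rose in all 5 comparisons, as did 2.81% of all genes. At 3 days it averaged 290.0 ± 14.0 CPM with BMS-986158 and 191 ± 0.868 CPM with DMSO in CHLA10 (SD, n = 3 each). It averaged 243 ± 1.92 and 128 ± 11.0 CPM in A673, and 214 ± 13.5 and 155 ± 4.78 CPM in TC32, in the same order. Its log2 changes were 0.61, 0.93 and 0.46 in these lines, and 0.53 in CHLA10 and 0.70 in A673 at 20 days, with SE of 0.08 each. Of the other 5 subunits of that complex on the list, LEO1 was called in no comparison. CDC73 was called higher in TC32 alone (0.48) and SKIC8 in A673 at 20 days alone (0.38). CTR9 was called higher in A673 at both times (0.50 and 0.31) and lower in CHLA10 at 20 days (-0.43). PAF1 was called lower in TC32 (-0.56) and higher in CHLA10 at 20 days (0.25).

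MLLT3, a subunit of the super elongation complex that binds acylated histones, rose in all comparisons but A673 at 20 days. Its log2 changes were 0.90 ± 0.15 in CHLA10, 0.50 ± 0.15 in A673 and 0.71 ± 0.15 in TC32 at 3 days and 0.95 ± 0.15 in CHLA10 at 20 days. In A673 at 20 days it was at 0.25 ± 0.15 (edgeR, adjusted p = 0.198). AFF4, the scaffold of that complex, rose in TC32, where it averaged 157 ± 31.5 CPM with BMS-986158 and 78.5 ± 6.76 CPM with DMSO (1.00 ± 0.15, edgeR adjusted p = 5.96e-06). Its changes in the other comparisons were 0.18 to 0.30 and not called, with the CHLA10 groups not overlapping at either time. ELL2, an elongation factor of the same complex, rose in A673 at 20 days, to 37.9 ± 16.0 CPM with BMS-986158 against 9.87 ± 1.36 CPM with DMSO (1.94 ± 0.39, edgeR adjusted p = 0.000367). In TC32 4 of the 8 tested genes of the super elongation complex were called higher and 0 lower, where 22.3% of all genes were called higher. The other comparisons had fewer. At 3 days 1 of the 8 was higher in CHLA10 (14.0% of all genes) and 1 in A673 (15.3%), with 0 lower. At 20 days 1 was higher and 0 lower in CHLA10 (16.5% of all genes higher). In A673 at 20 days 2 were higher and 1 lower (19.7% of all genes higher and 19.9% lower).

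POLR2A, which encodes the largest subunit of RNA polymerase II, rose in all comparisons but CHLA10 at 3 days. It averaged 391 ± 68.3 CPM with BMS-986158 and 203 ± 14.5 CPM with DMSO in TC32 (log2 change 0.95 ± 0.13, edgeR adjusted p = 1.58e-06), and its other called changes were 0.39 to 0.45. The A673 groups at 3 days overlapped despite the call, while the uncalled CHLA10 groups at 3 days did not. The kinase genes CDK12 (0.80 ± 0.12) and CDK13 (0.56 ± 0.11) and the cyclin gene CCNK (0.90 ± 0.19) rose in TC32, although the CCNK groups overlapped. None of the 3 was called in the other comparisons, where CDK12 came nearest in A673 at 3 days (0.29 ± 0.12, edgeR adjusted p = 0.0575). The list's other genes of this class did not rise in TC32. CCNH was called lower there (-0.34 ± 0.13, edgeR adjusted p = 0.0333), with overlapping groups. CDK7 (-0.04) and MNAT1 (-0.01) were not called there.

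Of the 4 subunits of the negative elongation factor NELF, NELFCD fell in 3 comparisons and NELFE in 2. NELFCD fell in CHLA10 and A673 at 3 days (-0.25 ± 0.08 and -0.24 ± 0.08) and in A673 at 20 days (-0.34 ± 0.08, edgeR adjusted p = 0.00132). NELFE fell in CHLA10 at 3 days (-0.27 ± 0.09) and in TC32, where it averaged 89.6 ± 15.4 CPM with BMS-986158 and 142 ± 9.14 CPM with DMSO (-0.66 ± 0.09, edgeR adjusted p = 1.27e-06). NELFB was called higher in A673 at 3 days and CHLA10 at 20 days (0.22 and 0.30), and NELFA in none. SUPT4H1, a subunit of the pausing and elongation factor DSIF, rose in A673 at 3 days (0.56 ± 0.14) and fell in CHLA10 at 20 days (-0.60 ± 0.14). JMJD6, a hydroxylase gene linked to pause release, fell in TC32 (-0.44 ± 0.12) and in A673 at 20 days (-0.81 ± 0.13), and rose in CHLA10 at 20 days (0.50 ± 0.13).

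**Figure D4:**
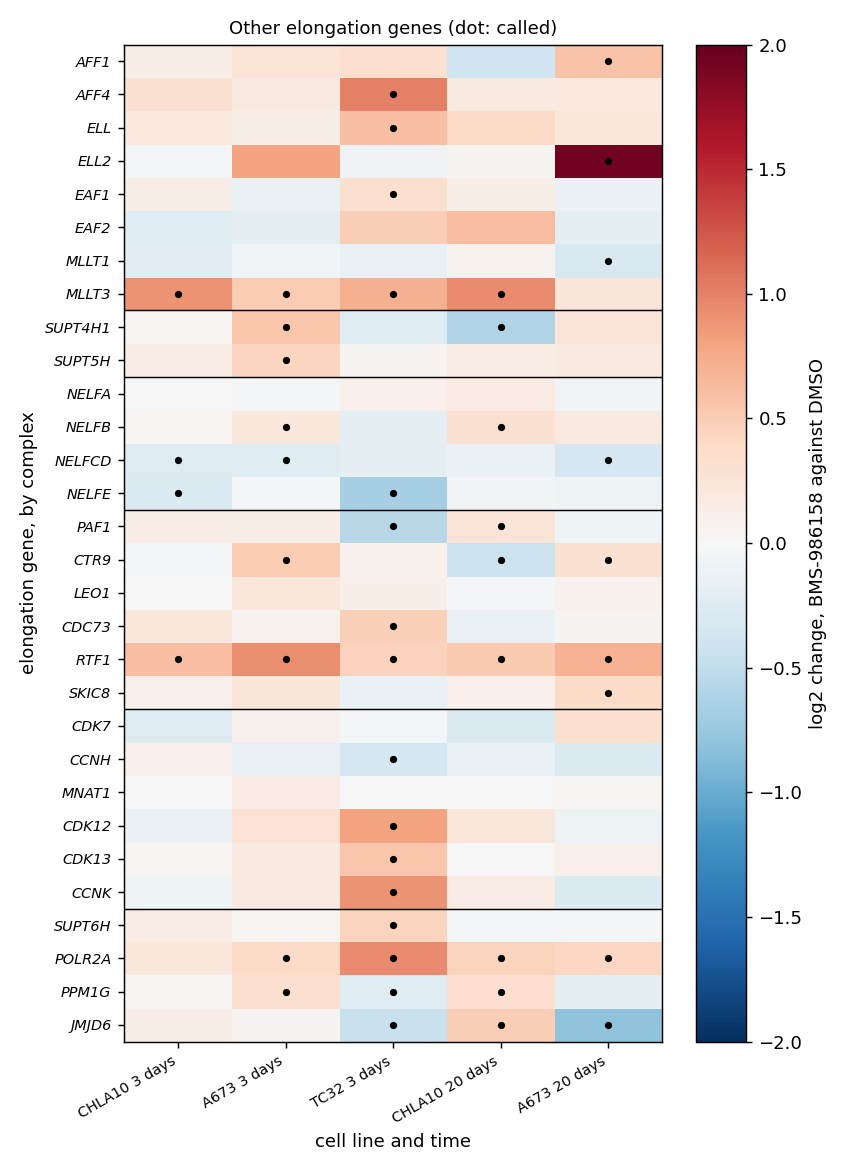
Log2 change, BMS-986158 against DMSO, of the 30 tested genes of the elongation list (rows, grouped by complex) in the 5 comparisons (columns), with a dot where the adjusted p was below 0.05. RTF1 was red with a dot in all 5, MLLT3 and POLR2A in 4, and TC32 had the most dots, 11 higher and 5 lower.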

How the data were processed

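RNA of 30 libraries (10 groups of 3, paired-end poly(A) libraries per the labels) was measured as raw counts per gene, which the authors deposited as 1 table. The submitters' processing notes name FastQC, Trim Galore, STAR and DESeq2 and the builds GRCh38 and hg38, while the tool that counted, its strand setting and the gene models it used are unstated in the sources at hand. Of 33538 Ensembl gene identifiers in the table, 33113 were paired with a symbol and 33456 were found in GENCODE 29. The counts were tested with edgeR 4.0.16 in R 4.3.3 (filterByExpr by group, TMM scaling, robust quasi-likelihood fit with 1 mean per group over all 30 libraries), and p-values were Benjamini-Hochberg adjusted over the 16713 genes that passed. A gene was called at an adjusted p below 0.05. CPM used TMM-scaled library sizes, and levels per kb used GENCODE 29 exon lengths. Standard errors were worked back from the edgeR test, as the absolute log2 change over the square root of its F statistic. The scripts were tested on simulated data.

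Alternatives were RLE scaling, scaling by library size only, no low-count filter, library sizes without the 50 most abundant genes, a replicate block, the contrast's lines only, leaving out libraries, and DESeq2 1.42.0. The 9 genes, the other lists and the 4 distant libraries were chosen with earlier results of these data known. Named elongation genes were those called in 1 direction in at least 3 of the 5 comparisons and the highest and lowest called gene of each. Genes named beside these (CDK12, CDK13, CCNK, CCNH, CDK7, MNAT1, NELFA, NELFB, CTR9, PAF1, LEO1, CDC73 and SKIC8) were chosen after their values were seen. The 5 genes most like HEXIM1 had a mean log2 CPM of at least 2, and neighbours lay within 5 kb. Replicate numbers come from the sample titles. Deviations from the group means of same-numbered BMS-986158 and DMSO libraries correlated above 0.1 in all 3 pairs only in CHLA10 at 20 days (r = 0.199, 0.15 and 0.361). Replicates 1 and 2 correlated across unlike numbers there too (r = 0.113 and 0.152). The numbers were not used as pairs in the main tests, only in the replicate block. No pair of replicates agreed within sampling noise (lowest chi-square per gene 2.161), so none was counted as 1 library.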

Additional observations from a re-analysis of the deposited data

Results flagged for a closer look

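The results below are differences between the effects of BMS-986158 in 2 lines, each tested directly in edgeR and past an adjusted p of 0.05. All are log2 differences of effects over 16713 genes tested.

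The effect on CCNT2 in TC32 exceeded that in CHLA10 by 0.792 and that in A673 by 0.577. For CCNT1 the excess in TC32 was 0.625 over CHLA10 and 0.626 over A673. For BRD3 it was 0.446 over CHLA10. The 5 values share the TC32 libraries, and TC32 also had the most genes called of the 5 comparisons, 45.1% of those tested. CCNT2-AS1, which overlaps CCNT2, also rose in TC32, and its part in the CCNT2 values was not tested.

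At 20 days the BRD3 effect was larger in A673 than in CHLA10 by 0.352, and the MEPCE effect differed by -0.5. The BRD3 call held in 5 of 18 alternatives (adjusted p of 0.0266 to 0.204) and the MEPCE call in 16 of 18 (0.00448 to 0.0936). The MEPCE value moves with 1 A673 DMSO library at 208 CPM, and without it the difference was -0.32 and not called (adjusted p = 0.0936).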

How the results depend on the processing

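No called log2 change of a single gene changed sign. Over 2727 reruns of single genes, 2612 kept their side of the threshold, 50 gained a call and 65 lost one; 118 sign changes were of uncalled values. HEXIM1 and BRD2 were called in all 5 comparisons under all 14 alternatives run for each, with HEXIM1 log2 changes of 0.546 to 1.107 and BRD2 changes of 0.345 to 0.767. Leaving out 1 library gave 2 to 3 members called in CHLA10 and 5 in A673 and TC32 at 3 days, and 3 to 4 in CHLA10 and 4 to 6 in A673 at 20 days.

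Counts that moved were these. The elongation list in CHLA10 at 3 days had 4 genes called, 2 with no filter, 7 without the 4 distant libraries and 2 to 3 without 1 library. In A673 at 3 days it had 9, 14 without the distant libraries and 6 to 11 without 1 library. Without the distant libraries calls over all genes also rose at 3 days, from 4975 to 6927 in CHLA10 and from 5637 to 7736 in A673. Members called between the 3-day effects of A673 and CHLA10 were 0, and 0 to 2 without 1 library. Between their 20-day effects they were 2, 1 with RLE scaling, library size only or no filter, 0 to 2 without 1 library and 3 with the replicate block. Members called between TC32 and CHLA10 in DMSO were 4, and 7 with library size only. Between A673 DMSO at 20 and 3 days they were 0, 2 in DESeq2 and 0 to 4 without 1 library.

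The replicate block changed no member call in the comparisons with DMSO. It called LARP7 between the effects of A673 and CHLA10 at 20 days (0.451, adjusted p = 0.0434) and of TC32 and A673 (-0.49, adjusted p = 0.0264). Deviations of same-numbered A673 libraries were not all positively correlated at either time. Of all genes, 1057 were called between the CHLA10 effects at 20 and 3 days, 1610 with the block, 1729 in DESeq2 and 289 to 1978 without 1 library. Between the A673 effects it was 1214, 591 with A673 alone in the fit and 685 to 2346 without 1 library. Between A673 DMSO at 20 and 3 days it was 1019, 0 with A673 alone, 1689 in DESeq2 and 12 to 3759 without 1 library, and between those of CHLA10 2526 and 1214 to 2922. Between 3-day effects, leaving out 1 library gave 1101 to 2728 genes for A673 and CHLA10 (1756 with all) and 1292 to 3146 for TC32 and CHLA10 (2307 with all). Which direction held more called genes turned over in some fits: in A673 at 3 days 2561 higher and 3076 lower became 4018 and 3718 without the distant libraries, and in TC32 3728 and 3817 became 3832 and 3748 without the 50 most abundant genes. Library size scaling moved the median of all genes by -0.115 in A673 at 20 days. HEXIM2 values rest on 3 to 49 reads.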
